A study of Homo sapiens with 2 samples.

Results

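Chemokines are small secreted proteins that draw leukocytes along a gradient, and tumour cells of epithelial origin release several of them. Here 10 chemokine genes that such cells are known to make, CXCL1, CXCL2, CXCL3, CXCL5, CXCL6, CXCL8, CXCL16, CCL2, CCL20 and CX3CL1, were taken by gene name from the 58735 genes of the deposited count table. MAEL KO cells were compared with MAEL WT cells, each with a single library. Both come from PLC8024 (PLC/PRF/5, also called Alexander cells), an established epithelial hepatoma line, grown without drug treatment. The MAEL WT cells carry the wildtype gene, and a legend of the study also calls them the nontarget control. The MAEL KO cells were made with a single guide RNA and Cas9 against MAEL, were sorted on a fluorescent marker and were grown from single clones, so that a trait of the clone and an effect of the knockout cannot be told apart. The study asks whether IL-8, the product of CXCL8, belongs to the signalling downstream of MAEL.

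The CXC chemokines with the residues glutamate, leucine and arginine ahead of their first cysteines (the ELR group, here CXCL1, CXCL2, CXCL3, CXCL5, CXCL6 and CXCL8) bind CXCR2, some also CXCR1, and attract neutrophils. CCL2 attracts monocytes through CCR2 and CCL20 attracts CCR6-bearing lymphocytes and dendritic cells, whereas CXCL16 and CX3CL1 are made as membrane proteins that proteases cut loose. Most of these genes are induced by NF-κB, and at CXCL8 the factor acts together with AP-1 and C/EBP proteins bound beside it.

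Counts summed to 19904136 for MAEL WT and 20833332 for MAEL KO. MAEL itself had 1 and 0 counts, so the knockout could not be checked in the RNA. The study describes this line as the highest in MAEL among those compared, from Western blots of the protein. Why the MAEL WT library held so little MAEL transcript was not tested. Defining leukocyte markers were near 0, with PTPRC at 3 and 0 counts and CD3E and MS4A1 at 0 in both libraries, although LYZ had 1251 and 737. Of 4 endothelial markers, VWF and KDR had at most 1 count and PECAM1 had 348 and 392, and the 6 fibroblast and stellate markers summed to 272 and 177 counts. The 6 hepatocyte markers summed to 1511 FPKM in MAEL WT and 4672 FPKM in MAEL KO, and the part of this difference in the chemokine values was not tested. In bulk RNA, fewer cells with a transcript and less of it per cell cannot be told apart.

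The promoters are shown because the ELR genes share a κB element while their transcripts differed between the libraries in unlike ways. RefSeq promoter sequences on GRCh38.p14 were at hand for 7 of the 10 genes. Each line gives the 72 bases that begin 140 bases before the RefSeq start, on the strand of the gene, and capitals mark the κB motif GGNNTTTCC, the AP-1 motif TGANTCA and the C/EBP motif TTGCNNA, searched on both strands.
CXCL8, plus strand, chr4:73740429-73740500: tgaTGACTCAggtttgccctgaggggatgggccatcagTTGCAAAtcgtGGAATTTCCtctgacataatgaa
CXCL1, plus strand, chr4:73869253-73869324: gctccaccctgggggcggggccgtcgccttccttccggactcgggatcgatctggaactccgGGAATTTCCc
CXCL2, minus strand, chr4:74099264-74099335: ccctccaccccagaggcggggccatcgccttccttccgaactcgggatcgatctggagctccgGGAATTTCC
CCL20, plus strand, chr2:227813702-227813773: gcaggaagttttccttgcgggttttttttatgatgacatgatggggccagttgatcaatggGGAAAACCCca

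All 7 promoters held the κB motif within 250 bases before the RefSeq start, against 5.48% of 27305 promoters. In the 6 ELR genes the letters were the same, GGAATTTCC. RefSeq starts are not always those of the gene spans given below, which follow GENCODE 29, the annotation of the counts. GENCODE exons covered 30 of the 72 bases in CXCL2, 50 in CXCL3, 34 in CXCL5 and all 72 in CXCL6. They covered 0 in CXCL1, CXCL8 and CCL20, although the CCL20 stretch lies inside the gene span. CXCL1, CXCL2 and CXCL3 each held a further copy closer to the start, GGGCTTTCC, beginning at -53. The AP-1 motif was found in CXCL8 alone, at -137 to -131, against 6.6% of all promoters. The C/EBP motif began at -102 in CXCL8, close before the κB motif at -91, whereas it began at -187 in CXCL2 and at -231 and -230, on opposite strands, in CCL20, and 29.3% of all promoters held it. A TATA box, TATAAA on the strand of the gene, began at -31 in CXCL8 and at -29 in CCL20, against 7.17% of all promoters. These matches describe letters only, and binding was not measured. The promoters of CXCL5 and CXCL6 were 85.3% identical over 250 bases and those of CXCL1 and CXCL3 81.4%.

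CXCL8 was the most abundant of the 10 transcripts in MAEL WT and was 4.52-fold lower in MAEL KO. CXCL8 encodes IL-8 and is a plus-strand gene of chromosome 4 (GRCh38, 73740506 to 73743716) with 3 annotated transcripts of up to 4 exons. MAEL WT gave 5434 counts of CXCL8 and MAEL KO 1039, which are 5065 and 1121 counts after TMM normalization, a scaling that sets the bulk of genes equal between libraries. After 1 was added to each normalized count, the log2 fold change (MAEL KO over MAEL WT, as everywhere here) was -2.18 (95% counting interval -2.27 to -2.08). This interval is an exact Clopper-Pearson interval and covers counting error alone, since reads were counted without molecular identifiers and there was no replicate library. Of the 17887 genes that reached 10 counts in either library, called tested here, 861 had a lower log2 fold change than CXCL8. No word of 50 bases in CXCL8 transcripts occurs in a transcript of another gene, so its counts could not be split with a paralogue.

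The log2 fold changes of the other 5 ELR genes all lay between -2 and 2. CXCL1 (chromosome 4, 73869393 to 73871242, plus strand) had 447 counts in MAEL WT and 708 in MAEL KO. Its log2 fold change was 0.87 (95% counting interval 0.70 to 1.05), a 1.83-fold higher level in MAEL KO. CXCL5, an epithelial neutrophil attractant (73995642 to 73998779, minus strand), had 2362 and 2464 counts. The log2 fold change of CXCL5 was 0.27 (0.19 to 0.35), and with total counts in place of TMM it was -0.00, so no direction is given for it. Total counts shift the median of all genes by -0.27, so that values between 0 and this size, that of CXCL2 among them, change sign with the scaling. CXCL2 (74097035 to 74099293, minus strand) had 479 and 425 counts, and the interval of its log2 fold change, 0.04 (-0.15 to 0.23), includes 0. CXCL3 (74036589 to 74038807, minus strand) had 63 and 40 counts, and CXCL6 (73836497 to 73849064, plus strand) had 23 and 16. For CXCL3 the log2 fold change was -0.44 (-1.05 to 0.15) and for CXCL6 -0.30 (-1.33 to 0.67), so that a difference of either gene was not detectable at this depth. Summed over the 5 ELR genes without CXCL8, counts went from 3374 to 3653, and over all 6 from 8808 to 4692, a log2 fold change of -0.70 (-0.97 with total counts).

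CXCL1, CXCL2 and CXCL3 are close paralogues whose reads the counting could have mixed. Of the words of 50 bases in their transcripts, 4.81% in CXCL1, 12.5% in CXCL2 and 6.01% in CXCL3 also occur in another gene, in each case in the other two. CXCL6 shares 2.16% of its words with the pseudogene PPBPP1, which overlaps it and had 0 counts in both libraries.

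**Figure D1:**
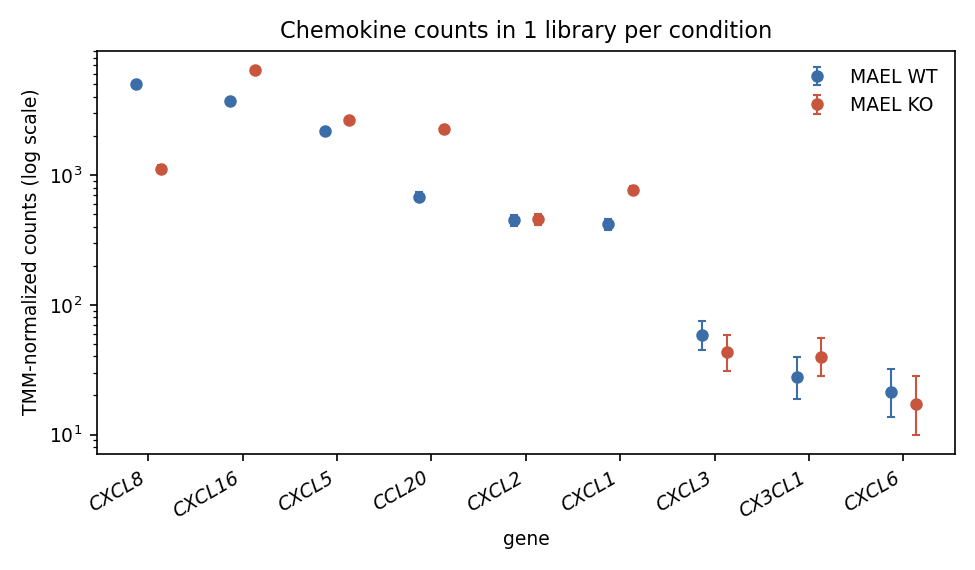
TMM-normalized counts (log axis) of the 9 chemokine genes tested, in MAEL WT (blue) and MAEL KO (red), with exact 95% Poisson intervals that cover counting error only. CXCL8 stands at 5065 in MAEL WT and 1121 in MAEL KO, whereas CCL20 stands at 683 and 2285.

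In the plot of normalized counts, the CXCL8 points lie apart in one direction and those of CCL20, CXCL16 and CXCL1 in the other. The intervals of CXCL2, CXCL3, CXCL6 and CX3CL1 overlap between the libraries.

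CCL20 had the highest fold change of the 10 genes and was 3.34-fold higher in MAEL KO. CCL20, the ligand of CCR6, lies on chromosome 2 from 227805739 to 227817564 on the plus strand and had 733 counts in MAEL WT and 2119 in MAEL KO. Its log2 fold change was 1.74 (1.62 to 1.86), and 590 of the 17887 genes had a higher one. No word of 50 bases in CCL20 is shared with another gene. CCL2, the monocyte attractant on chromosome 17 (34255218 to 34257203, plus strand), had 0 counts in both libraries, which allows up to 3 counts, or 0.151 CPM in MAEL WT and 0.144 CPM in MAEL KO.

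Of the chemokines made as membrane proteins, CXCL16 was 1.72-fold higher in MAEL KO and CX3CL1 was scarce. CXCL16, the ligand of CXCR6, lies on chromosome 17 from 4733526 to 4739922 on the minus strand and had 3986 counts in MAEL WT and 5933 in MAEL KO. The log2 fold change of CXCL16 was 0.78 (0.73 to 0.84). MED11 overlaps CXCL16 by 85 bases on the other strand with 187 and 245 counts, and whether counting used strand is not given in the sources used here. CX3CL1, or fractalkine, on chromosome 16 (57372458 to 57385048, plus strand), had 30 and 37 counts, and its log2 fold change of 0.50 (-0.22 to 1.26) includes 0. Transcripts of ADAM10, the sheddase that releases both proteins in resting cells, went from 2761 to 3430 counts with a log2 fold change of 0.52 (0.45 to 0.60). ADAM17, the inducible sheddase, had 1424 and 1179 counts with a log2 fold change of -0.06 (-0.17 to 0.05).

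**Figure D2:**
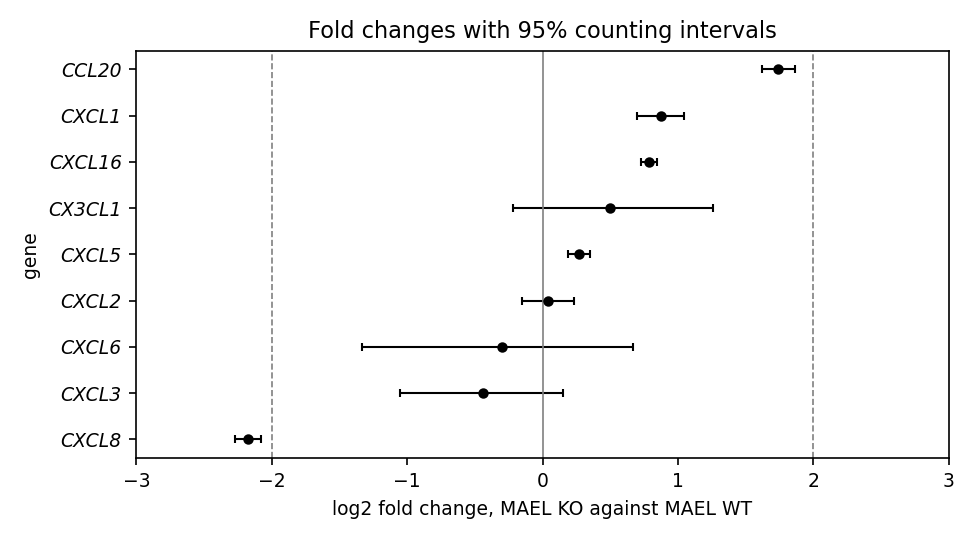
Log2 fold change (MAEL KO over MAEL WT) of the 9 chemokine genes tested, with exact 95% counting intervals, and dashed lines at the threshold of 2 in either direction. CXCL8 at -2.18 lies past the threshold and CCL20 at 1.74 does not reach it.

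The fold changes in this plot run from -2.18 for CXCL8 to 1.74 for CCL20. With a threshold of 2 on the log2 scale, taken from the study's methods, 1 of the 9 genes tested was lower (CXCL8) and 0 were higher. Among all 17887 genes tested, 5.64% were lower and 2.16% higher past this threshold, or 7.8% in either direction, and 1 of 9 (11.1%) rests on a single gene and is no result about the chemokines as a group. Of all genes past it, 27.7% were higher, or 17.0% with total counts. Among the 12023 genes with at least 100 counts, 3.89% were past the threshold and 2.35% were lower, and CXCL8 was again the one chemokine past it. The median log2 fold change of the 9 genes was 0.27, against -0.04 for all genes tested, and it was -0.00 with total counts. At a threshold of 1, CCL20 was also past it, beside 10.2% of all genes higher and 16.5% lower. With a coefficient of variation preset at 0.4, edgeR's exact test, which compares these 2 libraries and not the conditions, did not call CXCL8.

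The order of the chemokines by level changed accordingly. Levels of different genes were compared as FPKM, the authors' fragment counts scaled by gene length and by a library size that is not the total of the counts. In MAEL WT, CXCL8 ranked 1 among the 10 genes at 109 FPKM, followed by CXCL16 at 65.2, CXCL5 at 42.5, CCL20 at 21.0, CXCL1 at 15.8 and CXCL2 at 14.6 FPKM. The counting intervals of CXCL1 (14.3 to 17.3 FPKM) and CXCL2 (13.3 to 16.0 FPKM) overlapped, so their order was not resolved. In MAEL KO, CXCL16 led at 112 FPKM, then CCL20 at 70.1, CXCL5 at 51.2, CXCL1 at 28.8, CXCL8 at 24.1 and CXCL2 at 14.9 FPKM. Here the intervals of CXCL1 (26.7 to 31.0 FPKM) and CXCL8 (22.7 to 25.6 FPKM) did not overlap. CXCL3, CXCL6 and CX3CL1 were at 1.30 FPKM or less in each library, at ranks 7, 8 and 9. The counting intervals of CXCL6 and CX3CL1 overlapped in both libraries, so the order of this pair was not resolved. Among 19951 protein-coding genes, CXCL8 ranked 231 by FPKM in MAEL WT and 2085 in MAEL KO, and CCL20 ranked 2055 and 571.

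**Figure D3:**
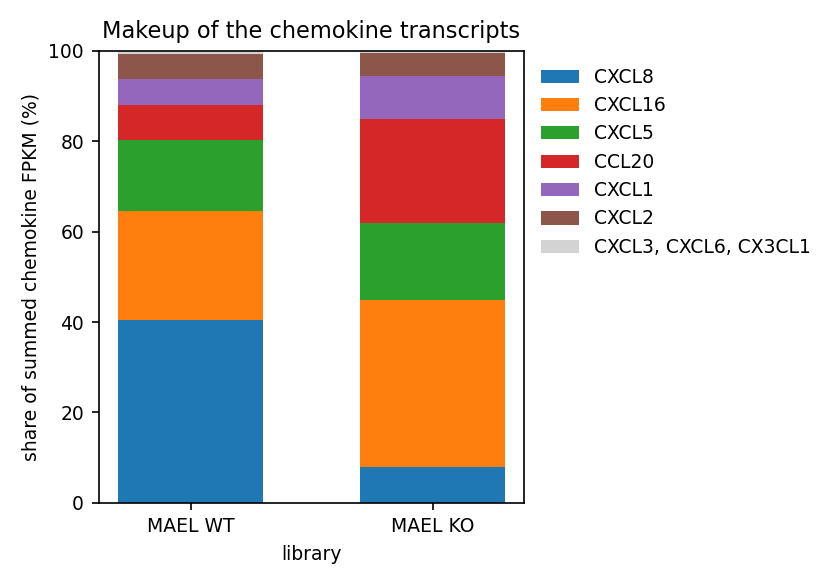
Share of the summed FPKM of the chemokine genes that each gene took, in percent, in MAEL WT and MAEL KO. CXCL8 goes from 40.4% to 7.96% and CCL20 from 7.77% to 23.2%.

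The makeup of the chemokine transcripts does not depend on the scaling between libraries. CXCL8 gave 40.1% of the counts of these genes in MAEL WT (95% Clopper-Pearson interval 39.3% to 40.9%) and 8.13% in MAEL KO (7.66% to 8.62%), or 40.4% and 7.96% of their FPKM. CCL20 gave 5.41% (5.03% to 5.80%) and 16.6% (15.9% to 17.2%) of the counts, and CXCL16 29.4% (28.6% to 30.2%) and 46.4% (45.6% to 47.3%). The counts of the 10 genes together were 13557 and 12781, or 12637 and 13784 after normalization, so that the sign of their difference depends on the scaling. Inside a library, CXCL8 had 12.2 times the counts of CXCL1 in MAEL WT (interval 11.0 to 13.4) and 1.47 times in MAEL KO (1.33 to 1.62). Relative to CCL20 the ratio of CXCL8 counts was 7.41 (6.86 to 8.02) in MAEL WT and 0.49 (0.45 to 0.53) in MAEL KO, a 15.1-fold shift. The ratio of CXCL1 to CXCL2, which share the same κB letters, was 0.93 (0.82 to 1.06) in MAEL WT and 1.67 (1.48 to 1.88) in MAEL KO.

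The 6 ELR genes lie within 359 kb on chromosome 4, and the fold changes along this region were not uniform. Of 45 genes listed within 1000 kb on either side, 18 were tested, 2 of which were higher and 5 lower past a log2 fold change of 2. Among all genes tested, 2.16% were higher and 5.64% lower. The 5 include CXCL8 itself and BTC, which had 1 count in MAEL KO. Upstream of CXCL8, the hepatocyte plasma protein gene ALB had 59 and 8550 counts (log2 fold change 7.36), and AFP, its fetal relative, had 26 and 1351 (5.85). Between AFP and CXCL8, RASSF6, a Ras-association domain gene, went from 114 to 45 counts (-1.11). Within the cluster, the platelet chemokine gene PF4 had 41 and 16 counts and a log2 fold change of -1.10 (-2.08 to -0.28). MTHFD2L, which encodes a mitochondrial folate enzyme and lies next to CXCL2, had 155 and 176 counts (0.39). Further downstream, the EGF-family ligand genes EREG and AREG went from 10556 to 1438 and from 11742 to 1533 counts, with log2 fold changes of -2.66 and -2.73. BTC of the same family had 24 counts and 1, a ratio of 20.7 with a wide counting interval (3.38 to 853), and PARM1 went from 2943 to 349 (-2.86). At the far upstream end COX18 was at 0.12 (-0.05 to 0.29) and ANKRD17 at 0.64. The antisense gene AC093677.2, which lies inside MTHFD2L so that their reads may not be separable, with 4 and 10 counts, was at 1.32 (-0.26 to 3.66).

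**Figure D4:**
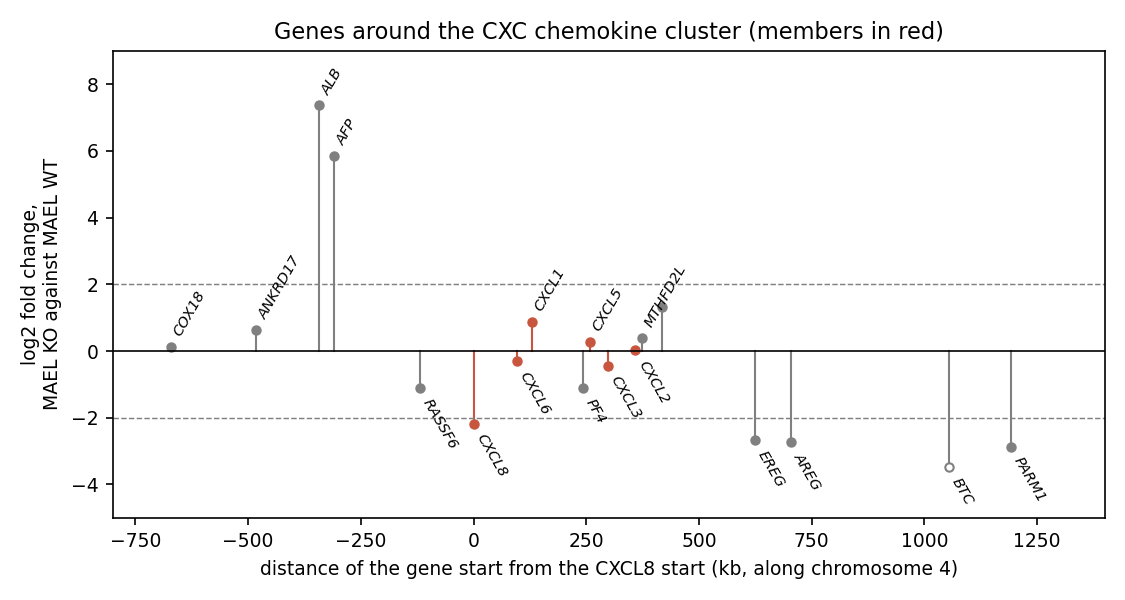
Log2 fold change (MAEL KO over MAEL WT) of the 18 genes tested around the chemokine cluster, by distance in kb of each gene's start from that of CXCL8, the 6 ELR genes in red, with dashed lines at 2 in either direction. The open symbol marks BTC, which had 1 count in MAEL KO and whose place depends on the added count, and the point without a name is AC093677.2.

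In the plot of the region, CXCL8 at -2.18 stands beside CXCL6 and CXCL1 at -0.30 and 0.87. The ALB and AFP points at one end and the EREG, AREG, BTC and PARM1 points at the other lie on opposite sides of 0.

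The remaining chemokine ligands were mostly not expressed. Of 36 such genes in the table, 19 had 0 counts in both libraries and 8 were tested, of which 0 passed a log2 fold change of 2. Among all genes tested 7.8% passed it, so 0 of 8 is no result about these ligands. Their median of 0.10 has no stable sign: it was -0.17 with total counts, -0.81 over 17 genes without a count filter and 1.01 over the 3 genes with at least 100 counts. The highest were CCL15 (96 and 179 counts, log2 fold change 1.10, 0.74 to 1.48), CXCL12 (385 and 671 counts, 1.01, 0.83 to 1.20), the stromal ligand of CXCR4, and CCL14 (14 and 24 counts, 0.94, -0.02 to 2.05). The lowest were PF4 and, with 28 and 13 counts, CCL3 (-0.85, -1.97 to 0.10), and XCL1 with 76 and 37 counts (-0.81, -1.44 to -0.24). CXCL9, CXCL10 and CXCL11, which interferon induces, had at most 2 counts in either library.

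Receptors for the chemokines were scarce in these cells. CXCR1 and CXCR2, the receptors of IL-8, had 0 counts in both libraries, as did CCR2, and CXCR6 had 2 in each. CX3CR1 had 2 and 0 counts. CCR6, the CCL20 receptor, had 0 counts in MAEL WT and 15 in MAEL KO, at least 5.78-fold higher against the floor of 3 counts, with an interval beginning at 2.05 on the log2 scale. Of 24 receptor genes, 6 were tested, and 1 was higher (CCR6) and 1 lower past the threshold, beside 2.16% higher and 5.64% lower among all genes tested. The lower receptor was CCR7, which guides cells to lymph nodes, with 46 and 3 counts, a ratio of 13.3 (counting interval 4.26 to 66.6). CCR10 had 52 and 11 counts, at -1.94 (-3.12 to -1.07), and the scavenging receptor ACKR2 had 26 and 11, at -0.97 (-2.20 to 0.04). GPR35 had 201 and 124 counts, at -0.48 (-0.82 to -0.16), and ACKR4, another scavenger, had 10 and 12, at 0.43 (-0.86 to 1.84). The median of the 6 was -0.73. At these counts the receptor list says little about direction.

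A list of 15 genes held proteases that release or trim chemokines and, as 1 of the 15, their inhibitor TIMP3. Of these, 10 were tested, with a median of -0.14. Past the threshold 2 were higher (ANPEP and TIMP3) and 0 lower, beside 2.16% higher among all genes tested. ANPEP, an aminopeptidase that shortens chemokine N-termini, went from 2694 to 10425 counts (log2 fold change 2.16, 2.10 to 2.22), and the inhibitor TIMP3 from 40 to 546 (3.95, 3.52 to 4.48). The lowest were MMP14 (548 and 128 counts, -1.88), CTSL (8580 and 3189, -1.22) and CTSD (3128 and 1857, -0.54). DPP4, which cuts many chemokines, had 2 and 3 counts.

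No NF-κB subunit, kinase or inhibitor passed the threshold. RELA, the p65 subunit, had 5101 and 4273 counts and a log2 fold change of -0.05 (-0.10 to 0.01), and NFKB1, the p50 subunit, had 1137 and 1104 counts and was at 0.17 (0.05 to 0.29). Of 26 subunits, kinases and inhibitors of the pathway, all of them tested, 0 passed the threshold in either direction, and the median was -0.08 (-0.36 with total counts). Of all genes tested 7.8% passed it, or 3.89% of those with at least 100 counts, which all 26 had. With so small a share, 0 of 26 is no result about the pathway. NFKBIZ, an inducible nuclear co-regulator, was highest at 1.81 (303 and 923 counts), followed by REL at 0.47 (334 and 400 counts) and the kinase RIPK1 at 0.45 (922 and 1086). The adaptor MYD88 (176 and 86 counts, -0.82), the deubiquitinase TNFAIP3 (1769 and 923, -0.73) and BCL3 (932 and 487, -0.72) were lowest. These are transcript levels, and the activity of NF-κB lies in the movement of its protein.

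Other known NF-κB target genes had values on both sides of 0. Of 27 on the list, 21 were tested, with 3 lower and 0 higher past the threshold (14.3%), beside 5.64% lower and 2.16% higher among all genes tested. Their median was -0.08, or -0.36 with total counts. PLAU, the urokinase gene, went from 85 to 3 counts, a ratio of 24.5 (counting interval 8.10 to 121), BCL2A1 from 18 to 1, a ratio of 15.6 (2.46 to 648), and CSF1, the macrophage growth factor gene, from 2270 to 390 (-2.33, -2.49 to -2.18). At the other end were the adhesion molecule gene VCAM1 (110 and 377 counts, 1.98), the complement gene CFB (49 and 98, 1.19) and TNFAIP8 (73 and 118, 0.89).

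Of 18 other factors known to act at the CXCL8 promoter, all tested, 4 were lower and 0 higher past the threshold (22.2%), and the median was -0.84. Over all genes tested 5.64% were lower, or 2.35% of those with at least 100 counts. This list, like the others, was chosen with earlier results of these data known, so its share is not an independent result. With DESeq2 size factors or total counts 5 were lower, so the number depends on the scaling. CEBPB, whose protein binds C/EBP elements, went from 9375 to 1723 counts with a log2 fold change of -2.23 (-2.31 to -2.16). ATF3, an AP-1 partner, went from 1170 to 180 (-2.48, -2.72 to -2.26), EGR1 from 1883 to 304 (-2.42, -2.60 to -2.25), and FOSL1, an AP-1 subunit, from 1320 to 254 (-2.16, -2.37 to -1.97). JUN, the founding AP-1 subunit, had 1810 and 1175 counts (-0.41, -0.52 to -0.31). HDAC1 (2715 and 5075 counts, 1.11), CEBPD (700 and 1295, 1.10) and POU2F1 (690 and 925, 0.63) were at the higher end. The C/EBP and AP-1 motifs were printed above for CXCL8, and no link between these transcripts and CXCL8 was tested.

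Cytokines that induce chemokines, and their receptors, gave 3 lower and 0 higher of 14 tested (21.4%), with a median of -0.63, where 5.64% of all genes tested were lower and 2.16% higher. LTBR, the lymphotoxin receptor, went from 318 to 2 counts, IL11 from 321 to 36 (log2 fold change -2.91, -3.49 to -2.45), and LTA from 11 to 0, at least 3.17-fold (its interval ends at -1.12 on the log2 scale), a bound that lies under the threshold. The ratio for LTBR was 137 (counting interval 37.7 to 1140). IL1RAP, the accessory IL-1 receptor chain, was higher, at 258 and 568 counts (1.35, 1.13 to 1.57), and next came IL6ST at -0.08 (-0.17 to 0.01) and IL17RA at -0.12 (-0.28 to 0.04). IL1A had 0 and 1 counts.

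Chemokine mRNAs carry AU-rich elements, through which bound proteins speed or slow their decay. Of 14 such proteins and decay factors, all tested, 0 passed the threshold, 11 had values above 0, and the median was 0.56 (0.29 with total counts). Among all 17887 genes tested, 8593 had values above 0. Past the threshold were 7.8% of these genes, or 3.89% of those with at least 100 counts, so 0 of 14 is no result about the list. ZFP36L2 (1297 and 2501 counts, 1.16) and ZFP36L1 (1649 and 2709, 0.93), which destabilise such mRNAs, and ELAVL1 (1072 and 1714, 0.89), which stabilises them, were highest. RC3H2 (1477 and 1036, -0.30), TIA1 (1371 and 1097, -0.11) and MAPKAPK2 (2205 and 1858, -0.04) were lowest.

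**Figure D5:**
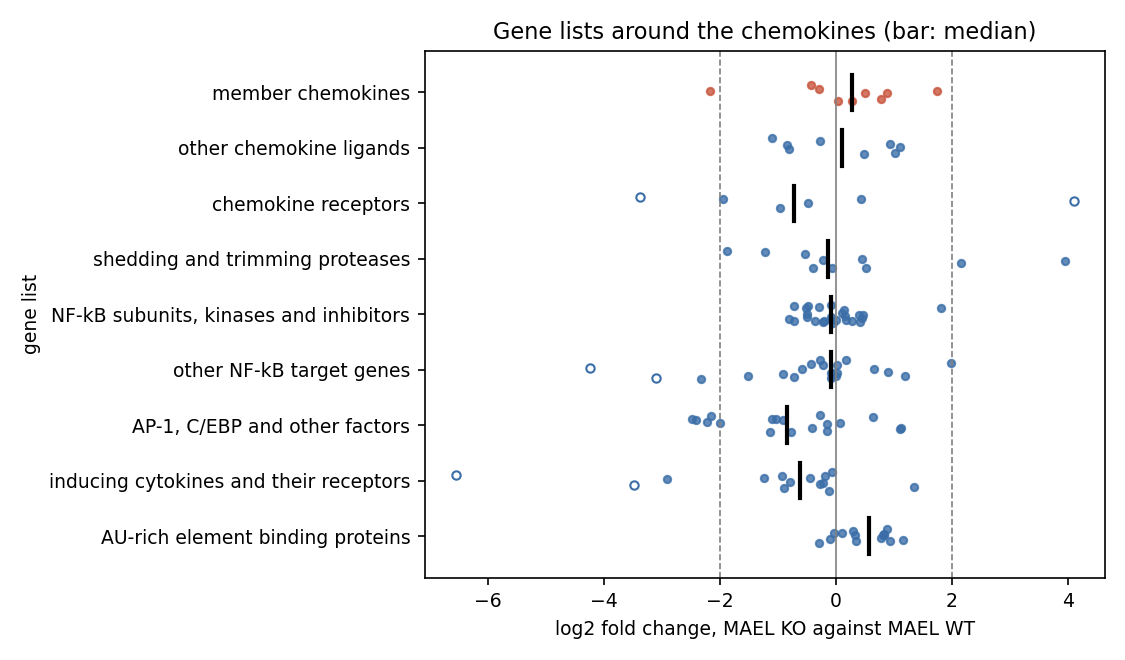
Log2 fold change (MAEL KO over MAEL WT) of each gene tested (points) and the median (bars) of the 9 gene lists, with dashed lines at 2 in either direction. Open points are genes with at most 3 counts in 1 library, whose place depends on the added count, and the medians run from -0.84 for the AP-1 and C/EBP list to 0.56 for the AU-rich element list.

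The plot of gene lists shows the NF-κB components with a median of -0.08 and values from -0.82 to 1.81. The AP-1, C/EBP and related factors have a median of -0.84 and values from -2.48 to 1.11, so the spreads overlap. Lists are described by their counts and medians only, since 1 library per condition gives no error for a test.

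PTGS2, the inducible cyclooxygenase gene, had 390 and 1 counts, a ratio of 337 (counting interval 60.1 to 13348). Among the protein-coding genes near CXCL8 in the plane of log2 FPKM in MAEL WT and in MAEL KO were CYP1A1, C6orf48, CHCHD10 and WARS, at distances of 0.30 to 0.52 over these 2 libraries. CYP1A1, a target of the aryl hydrocarbon receptor, had 7208 and 1332 counts (-2.22). C6orf48 had 4971 and 1000 counts (-2.10), CHCHD10, a mitochondrial protein gene, 2796 and 810 (-1.58), and WARS, the tryptophanyl-tRNA synthetase, 10778 and 3216 (-1.53).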

How the data were processed

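The authors sequenced RNA of 1 MAEL WT and 1 MAEL KO library (HiSeq). The authors deposited read counts per gene, not normalized, and FPKM values per gene. The submitters' processing notes name HISAT2 2.0.5, featureCounts 1.5.0-p3 and hg19, but all 58735 genes have the start, end and strand of GENCODE 29 on GRCh38, which is used here. The 4 columns of sample values were used.

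Counts were scaled by TMM factors from edgeR 4.0.16 (1.1004 for MAEL WT, 0.9087 for MAEL KO), and 1 was added before log2 fold changes were taken for genes with at least 10 counts in 1 library. With 0 counts in either library the fold is a bound against 3 counts, and with 1 to 3 the ratio of normalized counts is given. Counting intervals are at 95%, Clopper-Pearson for shares and Poisson for levels. No p-value is given. DESeq2 1.42.0 gave other size factors. Software was R 4.3.3, Python 3.11.15, NumPy 2.4.6, SciPy 1.17.1, pandas 2.3.3 and matplotlib 3.10.9. The log2 fold changes and counting intervals were tested on simulated Poisson counts with known scaling and no variation between libraries. The other steps were not tested in this way.

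Alternatives were other size factors, total counts, FPKM ratios, added counts of 0.1 and 5, other filters, a log2 threshold of 1 and a preset-variation test. FPKM ratios and DESeq2 size factors each shifted the median of all genes by -0.0041, so they are not separate checks. The 10 genes and all lists were chosen with earlier results of these data known. Named genes are the 10 chemokines, up to 3 at each end of each list, the genes around the cluster, RELA, NFKB1, CEBPB, JUN, PTGS2 and MAEL, and the 5 nearest to CXCL8, of which 1 is not reported here; others named for their role (receptors, sheddases, absent ligands) were added after their values were seen.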

Additional observations from a re-analysis of the deposited data

How the results depend on the processing

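With 1 library per condition, leaving out a library was not possible. No paired analysis was possible because each group holds a single library. The log2 fold change of CXCL8 lay between -2.45 and -2.17 over 8 alternatives and stayed past the threshold of 2. Among these, the other count filters and the limit to protein-coding genes keep each gene's own value, so they could not move it. The value furthest out, -2.45, came with total counts, which shift the median of all genes by -0.27. With that scaling CXCL5 turned to -0.0048, and the median of NF-κB components moved to -0.36. Of 69 member values under the alternatives, 63 stayed within their counting interval and 6 left it, all with total counts, where CXCL2, at -0.24, also changed sign. The values under the other filters are among the 63 by their making.

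By edgeR's exact test with a coefficient of variation of 0.4, 0 chemokines of the 10 were called. Without a count filter, 2 other ligands and 1 gene of the protease list were lower and 1 of the cytokine list higher. With total counts 2 receptors and 1 gene of the protease list were lower, 1 of that list, the inhibitor TIMP3, was higher, and with 0.1 added 2 receptors were lower. With at least 100 counts, 0 receptors passed in either direction and 1 NF-κB target was lower. At a log2 threshold of 1, the numbers lower and higher were 1 and 1 for the chemokines, 1 and 2 for other ligands, and 8 and 2 for promoter factors. At that threshold 2 receptors and 2 genes of the protease list were lower, 2 NF-κB targets were higher, and 1 gene was higher in each of the NF-κB, cytokine and AU-rich lists. The order by FPKM was the same for all 10 genes with TMM-scaled counts per kilobase. Inside a library both divide the same counts by gene length, so the order could not differ and this is no check. Beyond what each setting does by its making, the cause was not tested.

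Over all genes past a log2 fold change of 2, 27.7% were higher, with 17.0% under total counts, 36.7% without a count filter and 39.5% at 100 counts or more. With 5 added, 513 genes were lower in place of 1008 and 250 higher in place of 387. Without a filter 1773 were lower and 1029 higher, and with at least 100 counts 283 and 185.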
